A study of Mus musculus with 8 samples.

Results

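The nuclear-encoded subunits of the mitochondrial respiratory chain and of ATP synthase were compared, complex by complex, in macrophages sorted from mouse livers after vehicle or carbon tetrachloride (CCl4). Members were the gene symbols of the deposited FPKM table (a level per gene, corrected for transcript length and depth) that begin with Nduf, Uqcr or Atp5, or with Cox followed by a digit from 4 to 8, together with Sdha, Sdhb, Sdhc, Sdhd and Cycs. The rule gave 96 of 29956 named genes. They were 36 subunits of complex I, 8 complex I assembly factors, 4 subunits of complex II, 8 of complex III, cytochrome c (Cycs), 20 genes of complex IV, 15 of complex V and 4 genes outside these sets, which were Atp5s and 3 Atp5l pseudogenes. The symbol rule passes over a few true subunits, such as Cyc1 of complex III and Usmg5 of complex V, and it takes in Atp5sl, a complex I assembly factor that newer annotations call Dmac2.

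All mice were wild-type BALB/c, and each group had 4 libraries, numbered from 1 to 4. CCl4 is a liver toxin that, given repeatedly, produces fibrosis; the sources used here do not state its dose and duration, the vehicle, the age of the mice or whether each library came from a separate mouse. Cells were sorted for CD45 and F4/80, with CD31-positive cells removed according to the design text, and little RNA per library was amplified before sequencing. The gate holds any F4/80-positive liver macrophage, whether resident or recruited.

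The respiratory chain passes electrons from NADH (complex I) and succinate (complex II) through coenzyme Q, complex III and the carrier cytochrome c to oxygen at complex IV. The protons pumped on the way drive ATP synthesis by complex V. All complexes except II combine subunits encoded in the nucleus with subunits encoded by mitochondrial DNA. In macrophages the balance between respiration and glycolysis is known to differ between activation states.

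Estimated counts summed over matched transcripts ran from 19428078 to 26119351 per library. Levels below are counts scaled to library size with TMM factors (CPM) unless TPM, which also corrects for transcript length, is named. Of 8 macrophage markers, 1 passed the test, Lyz2, as higher after CCl4 (16441 CPM in vehicle and 47034 CPM in CCl4 on average). Their summed CPM was 22252 to 25437 in vehicle and 48610 to 62024 in CCl4. Lyz2 made up most of this sum, so its rise does not show a rise of the macrophage markers in general. Csf1r was at 3865 CPM in vehicle and 3491 CPM in CCl4 on average, and Cd68 at 1800 and 2167 CPM. The marker of the gate, Adgre1, which encodes F4/80, was at 1272 and 1187 CPM on average, and 5 of 6 markers of Kupffer cells, the resident macrophages of the liver, passed the test as lower after CCl4. Markers of other cell types were detected and differed too: 6 of 8 sinusoidal endothelial markers passed as lower (summed CPM 446.7 to 781.1 in vehicle and 178 to 289.3 in CCl4), 4 of 8 neutrophil markers as higher (34.02 to 90.35 and 70.82 to 315.5) and 5 of 8 cholangiocyte and mesothelial markers as higher (6.21 to 27.33 and 53.75 to 147.7). Of 8 stellate cell and fibroblast markers, 2 passed as higher (Col1a1 and Col3a1) and 3 as lower (Lrat, Reln and Rgs5), with summed CPM of 115.1 to 495.9 and 145.4 to 300.6. Of 8 B and plasma cell markers, 1 passed as lower. Hepatocyte markers, with 1 of 8 lower, summed to 90.26 to 143 CPM and 54.98 to 114 CPM. The part of these cells in the results below was not tested, and in bulk RNA fewer cells of a type and less RNA per cell cannot be told apart.

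The respiratory chain genes were abundant transcripts in these cells. Per length, the most abundant member was Cox4i1 of complex IV, at a mean TPM over the 8 libraries of 820, followed by Uqcr11 of complex III at 732 and Ndufa1 of complex I at 649. Median TPM was 147 over complex I, 203 over complex II, 305 over complex III, 376 over the tested genes of complex IV and 231 over complex V. Complex I assembly factors, which act on the complex while it is built, were much lower, between 4.94 TPM (Ndufaf4) and 19.4 TPM (Atp5sl). Subunits of 1 complex were not at 1 level: within complex I they ran from 41.4 TPM for Ndufs1 to 649 for Ndufa1, and within complex V from 31.4 TPM for Atp5g1 to 543 for Atp5b.

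**Figure D1:**
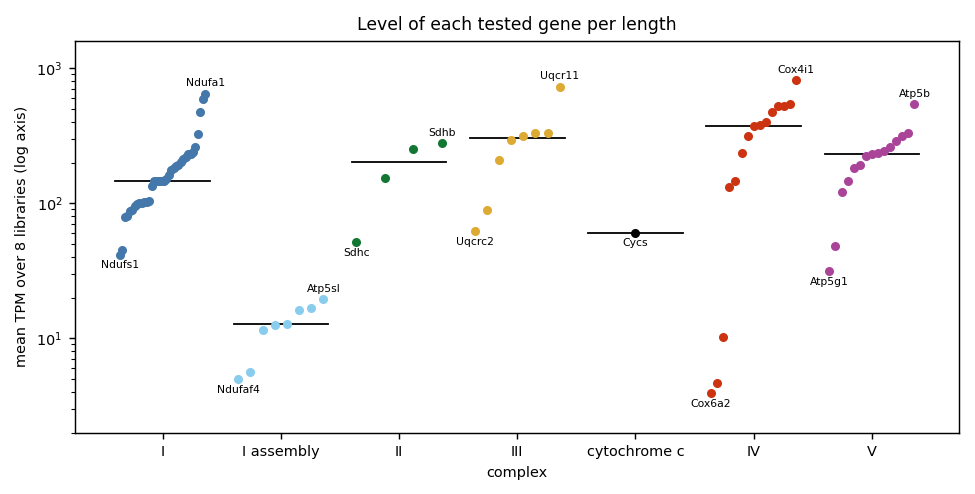
Mean TPM over 8 libraries (log axis) of each tested gene, ordered by level within each complex, with a line at the median of the complex and the lowest and highest gene named. Complex I assembly factors sit between 4.94 and 19.4 TPM, and most subunits of complexes I to V lie above them.

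Complex IV has genes that replace a main subunit in muscle, testis, lung or low oxygen. These were close to the limit of detection. Cox4i2, the alternative to Cox4i1 known from lung and low oxygen, reached at most 0.523 CPM, and Ndufa4l2, the low-oxygen relative of Ndufa4, at most 0.418 CPM. Both fell under the count filter, as did Cox7b2, Cox8b and Cox8c. Of the muscle and testis types, Cox6a2, Cox6b2 and Cox7a1 were tested, with a highest value of 3.53 CPM (Cox7a1 in vehicle 2) against 107.4 CPM for its usual partner Cox7a2 in the same library. The 3 Atp5l pseudogenes stayed at or below 0.36 CPM, so that 88 members in all passed the count filter and 8 did not.

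After CCl4, 1 of the 88 tested members passed the test as lower and 0 as higher (edgeR's quasi-likelihood test, adjusted p under 0.05 over all 15212 genes tested). Over all genes tested, 15.2% were called, 8.93% higher and 6.26% lower. Without adjustment, 8 members had p under 0.05, where 28.2% of all genes did. The gene that passed was Cox5a. The log2 fold changes of the 88 members ran from -0.78 to 0.46, with standard errors from 0.12 to 0.51, and for 80 of them the 95% interval lay wholly inside a change of 1 on the log2 scale in either direction. The median over the members was -0.20 beside -0.03 over all genes, and 66 of 88 were below 0, where 52.1% of all genes were.

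**Figure D2:**
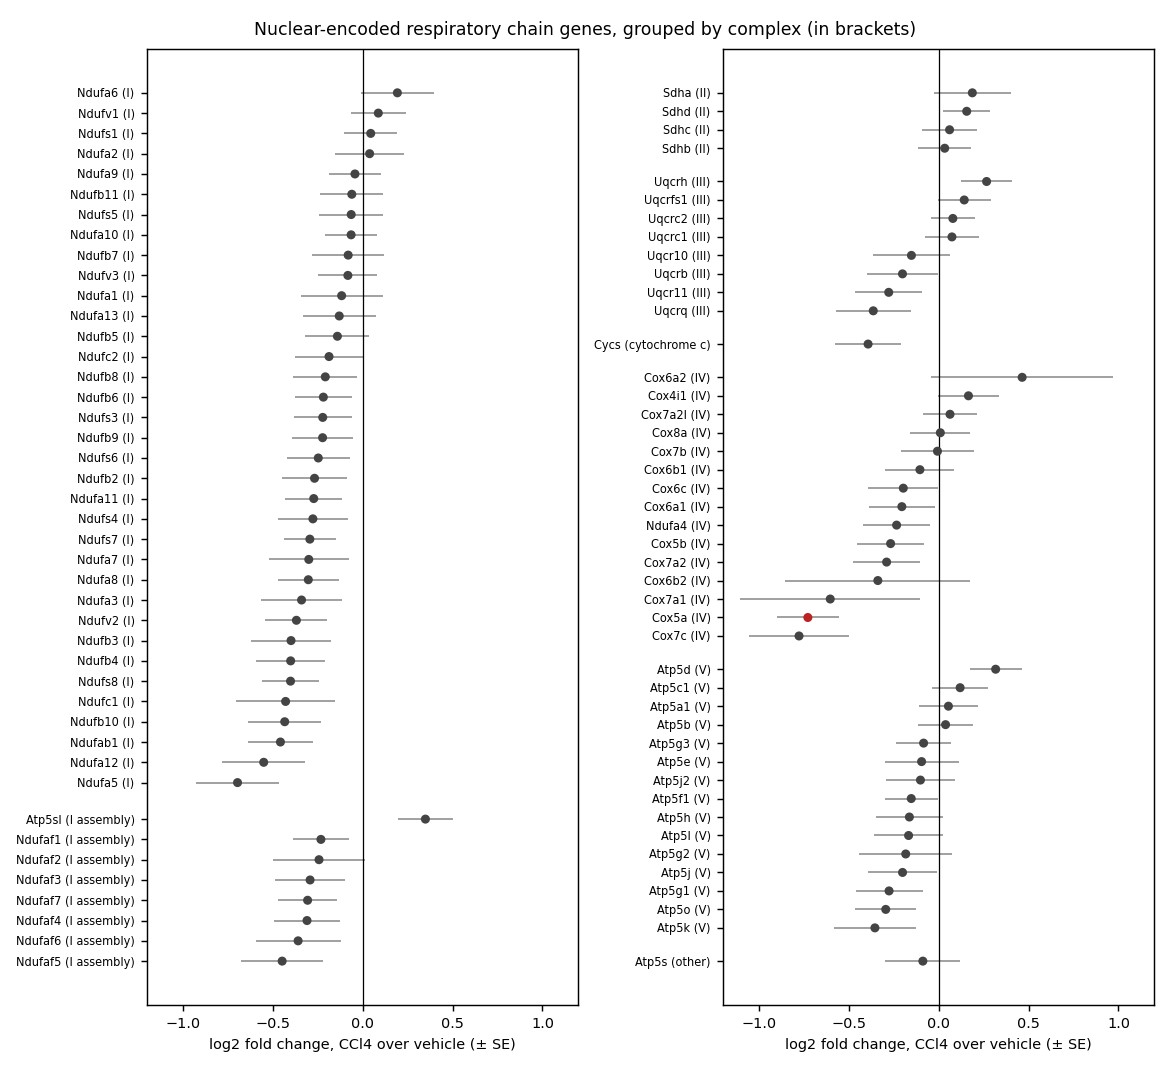
Log2 fold change of CCl4 over vehicle with its standard error for 87 of the 88 tested genes, 4 libraries a group, sorted within each complex (named in brackets). The red point is Cox5a, which alone passed the test; most other points of complexes I, IV and V lie left of 0 and the 4 points of complex II lie right of it.

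The shift of the median depended most on 1 vehicle library, vehicle 2. That library was the highest of the 4 vehicle libraries for 72 of 88 members, and by Dixon's ratio it stood apart from the other vehicle libraries for 43 of 88, where each of the other 7 libraries stood apart for at most 1. The median of its log2 ratio to the mean of the other vehicle libraries was 0.55 over the members and -0.002 over all genes tested. This offset went with transcript length: over 54 members with transcripts under 1000 bases its median was 0.63 and all 54 were above 0, while over 34 longer members its median was 0.25 and 21 were above 0. Across the 88 members, which share these libraries, the offset correlated with log10 length of the most abundant transcript at r = -0.65 (Spearman's rho -0.61). Across all genes, where an effective length averaged per gene was used instead, it was r = -0.13 (rho -0.17). Because the measure of length differs, these coefficients are not directly comparable. CCl4 4 was the lowest CCl4 library for 66 of 88 members. These were also the libraries with the fewest counts, 19626288 in vehicle 2 and 19428078 in CCl4 4, and the part of depth in the offset was not tested.

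**Figure D3:**
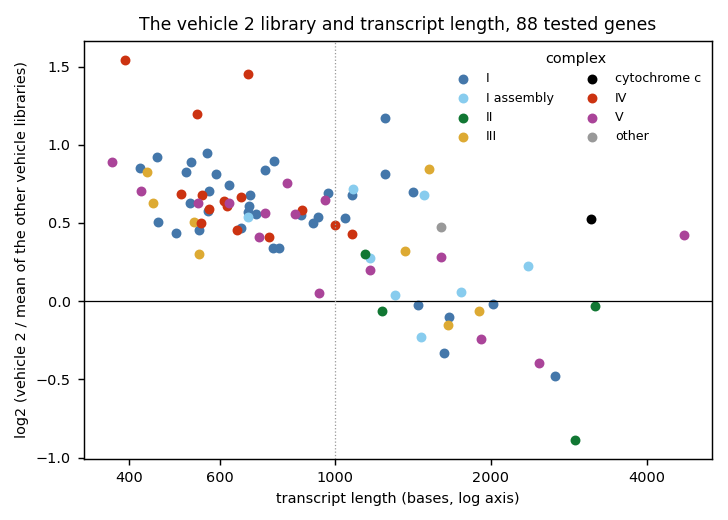
Log2 ratio of vehicle 2 to the mean of the other vehicle libraries against transcript length (log axis) for the 88 tested genes, coloured by complex. All 54 genes left of the dotted line at 1000 bases lie above 0, and of the 34 at or beyond it 21 do.

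Without CCl4 4 the median over the members was -0.11, without CCl4 3 it was -0.12 and without vehicle 2 it was -0.04, the last with 1 member called higher (Ndufa6) and 1 lower (Cox5a), beside 17.3% of 15448 genes called, 9.73% higher and 7.53% lower. Without both vehicle 2 and CCl4 4 it was 0.04, and 4 members were called higher, among them Ndufa6, Uqcrh and Atp5d, and 1 lower (Cox5a), beside 18.8% of 14982 genes called, 11% higher and 7.76% lower. Complex medians moved with it, from -0.22 to 0.02 for complex I, from -0.21 to 0.07 for complex IV and from -0.15 to 0.08 for complex V. The direction of those complexes is therefore not given as a result below.

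Cox5a encodes a nuclear subunit of cytochrome c oxidase that is known to pair with Cox4i1 early in the building of complex IV. It lies on chromosome 9 at 57521274 to 57532426 on the plus strand (mm10, GENCODE M21), and no other annotated gene of the tables overlaps it. Its level was 194.7, 265.2, 199.7 and 187.2 CPM in the vehicle libraries, in order of their numbers, and 138.8, 151, 121.2 and 100 CPM in the CCl4 libraries. Every CCl4 library lay below every vehicle library, and vehicle 2 was the highest. The means were 211.7 ± 36 and 127.7 ± 22.2 CPM (SD, n = 4 each), a fold of 0.604 (log2 fold change -0.73, SE 0.17, edgeR adjusted p = 0.0148). Groups that do not overlap were found for 9 of 88 members and for 22.5% of all genes tested. The call held in all 19 alternatives, with log2 fold changes from -0.87 to -0.51 and adjusted p from 0.000737 to 0.0464.

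Within complex IV, the share of Cox5a was lower after CCl4. Cox5a held 14.1%, 13.4%, 15.5% and 14.4% of the summed CPM of the 11 main nuclear-encoded subunits in the vehicle libraries, and 10.3%, 9.68%, 9.72% and 9.43% of it after CCl4. These shares are compositions of the CPM values just given and carry no test of their own. The shares of the other main subunits were not computed, so a lower share is not shown to be particular to Cox5a. The ratio of Cox5a to Cox4i1 lay between 0.657 and 0.716 in the vehicle libraries and between 0.355 and 0.401 in the CCl4 libraries, with means of 0.694 ± 0.0264 and 0.373 ± 0.0197. Vehicle 2, at 0.709, did not stand out in this ratio. The ratio of Cox5a to Cox5b was 2.17 ± 0.172 in vehicle and 1.57 ± 0.113 in CCl4, and that of Cox4i1 to Cox5b went the other way, from 3.13 ± 0.235 to 4.2 ± 0.204.

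**Figure D4:**
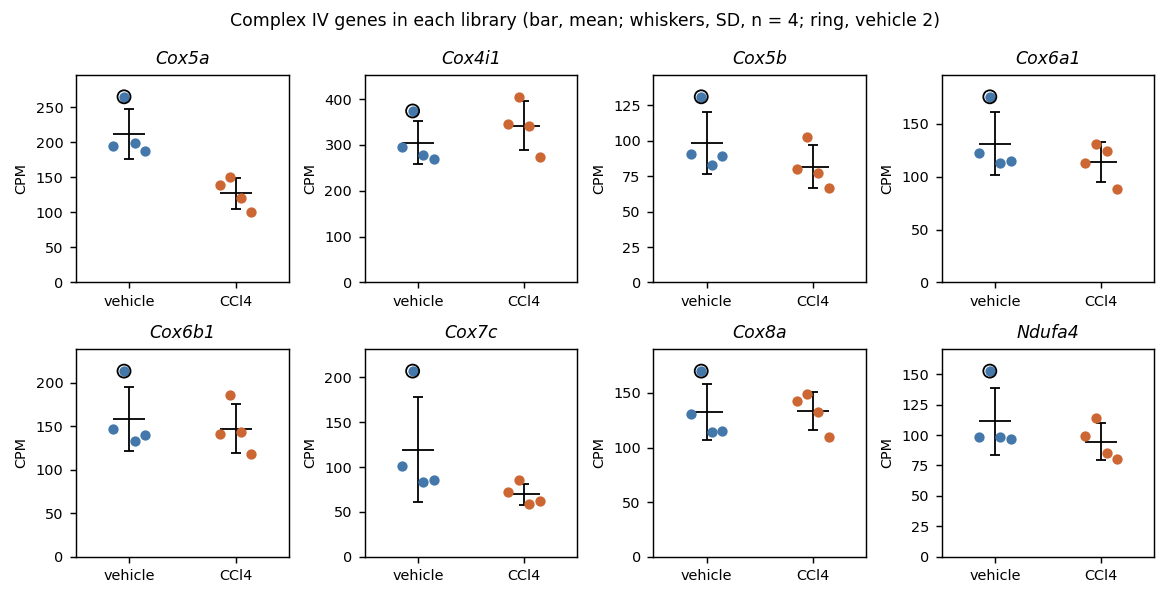
CPM of 8 nuclear-encoded genes of complex IV in each library, with the mean and SD of 4 libraries a group and a ring around vehicle 2. For Cox5a the CCl4 points, 100 to 151 CPM, lie below all vehicle points, 187.2 to 265.2 CPM, while for the other genes the groups overlap.

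The other main subunits of complex IV did not pass the test. Cox4i1, the most abundant, was at 296.5, 374.1, 278.9 and 270.1 CPM in vehicle and 346.4, 405, 341.5 and 274.4 CPM in CCl4, so the groups overlapped (log2 fold change 0.17, SE 0.17, 95% interval -0.20 to 0.53). Cox7c, a small membrane subunit, had the largest negative estimate of all members. It was at 101.6, 207, 83.74 and 85.95 CPM in vehicle and 72.43, 85.41, 59.07 and 61.93 CPM in CCl4 (log2 fold change -0.78, SE 0.28, edgeR adjusted p = 0.0847). Vehicle 2 was far above the other vehicle libraries, and CCl4 2 lay above vehicle 3, so the groups overlapped. Without vehicle 2 the estimate was -0.38, and without vehicle 2 and CCl4 4 it was -0.33. That of Cox4i1 was 0.28 and 0.37 in the same settings. Cox5b, which binds zinc, was at 90.74, 131.1, 82.67 and 89.43 CPM in vehicle and 80.44, 102.7, 77.45 and 66.4 CPM in CCl4 (log2 fold change -0.27, SE 0.19). Cox7a2l, which joins complexes III and IV into supercomplexes, was at 83.05, 119.9, 97.97 and 85.63 CPM in vehicle and 104.1, 105.3, 101.2 and 93.08 CPM in CCl4 (0.06, SE 0.15). For both genes the groups overlapped. The isoforms Cox6a2, Cox6b2 and Cox7a1 had estimates of 0.46, -0.34 and -0.60 with standard errors of 0.50 to 0.51, so that changes as small as these could not be told from 0 at this depth. Over the 15 tested genes of complex IV, 11 estimates were negative and 4 positive.

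The window of 250 bases before the RefSeq start of Cox5a (chr9:57520982-57521231, plus strand, GRCm38.p6) is shown because Cox5a was the member that passed the test. Short windows of members that did not pass are shown further below.

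Cox5a: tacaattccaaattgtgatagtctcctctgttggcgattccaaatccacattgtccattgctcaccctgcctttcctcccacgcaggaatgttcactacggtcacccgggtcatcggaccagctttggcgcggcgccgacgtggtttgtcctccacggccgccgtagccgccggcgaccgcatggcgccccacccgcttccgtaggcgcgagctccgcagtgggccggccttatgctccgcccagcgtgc

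Windows of 300 bases, from 250 before to 50 after the start, were searched on both strands for GCGCATG (part of the motif of NRF1, a known activator of respiratory genes), CCGGAAG (an ETS motif, bound by GABPA) and AGATGGC (part of the YY1 motif). The table held 81 windows for 75 members and none for the other 21. GCGCATG was in 19.8% of the members' windows and 3.91% of 32851 windows of all genes, CCGGAAG in 21% and 8.86%, and AGATGGC in 17.3% and 6.40%. The Cox5a window held 0 exact matches, as did 38 of the 75 members with a window, while that of Cox5b held GCGCATG. Along the gene, a GCGCATG match on the other strand reads CATGCGC, as below for Cycs, Sdhb and Ndufa6. The lines below show that match, in capitals and read along the gene, for Cox5b, Cox6a1, Cycs, Sdhb, Ndufa6 and Atp5g2, whose windows lie at chr1:36691425-36691453 (plus), chr5:115349103-115349131 (minus), chr6:50566611-50566639 (minus), chr4:140961207-140961235 (plus), chr15:82354356-82354384 (minus) and chr15:102671072-102671100 (minus).

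Cox5b: gaggcagaactGCGCATGtgcggcgtcta
Cox6a1: acaggaacgggGCGCATGcgcgctctcgc
Cycs: atgctagctcgCATGCGCgcgcacaaacc
Sdhb: agcccagtgggCATGCGCcctacgggccg
Ndufa6: ccgcggtagagCATGCGCattgcagagcc
Atp5g2: tggctccggccGCGCATGcgcagagcctt

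The median log2 fold change was -0.24 over the 16 tested members with this match and -0.20 over the 57 tested members whose window lacked it. For CCGGAAG the medians were -0.17 (17 members) and -0.26 (56 members), and for AGATGGC -0.26 (12) and -0.21 (61). A match is a run of letters and does not show that a factor was bound there.

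Complex I, the entry point for NADH, had 0 of 36 subunits called. Its 7 core subunits, which carry the flavin and the iron-sulfur clusters or bind the quinone, gave 3 positive and 4 negative estimates, and its 29 accessory subunits 2 positive and 27 negative. Vehicle 2 was the highest vehicle library for 4 of the 7 core and 27 of the 29 accessory subunits. The difference in signs is a description and was not tested. The summed CPM of the 36 genes was 2389, 3389, 2320 and 2327 in vehicle and 2252, 2659, 2322 and 1935 in CCl4. The groups overlapped, with vehicle 2 highest and CCl4 4 lowest.

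Ndufa5, an accessory subunit of the arm that holds the quinone site, was at 33.2, 60.1, 32.28 and 29.73 CPM in vehicle and 25.39, 28.82, 21.68 and 19.79 CPM in CCl4. The groups did not overlap, and vehicle 2 was again far above the others (log2 fold change -0.70, SE 0.23, edgeR adjusted p = 0.0626). Without vehicle 2 the estimate was -0.41 (adjusted p = 0.0828), and without vehicle 2 and CCl4 4 it was -0.33 (adjusted p = 0.128). It passed in 7 of 19 alternatives. Groups without overlap were less frequent among the members, 9 of 88, than the 22.5% over all genes tested. Further complex I subunits with groups that did not overlap were the iron-sulfur core subunits Ndufs7 and Ndufs8, the mitochondrial acyl carrier protein Ndufab1 and the membrane-arm subunit Ndufb10, each with its CCl4 libraries below its vehicle libraries and with adjusted p between 0.12 and 0.212. Ndufs8 was at 131.5, 157.4, 121.5 and 119.3 CPM in vehicle and 87.05, 118.7, 110.1 and 84.99 CPM in CCl4, with vehicle 4 and CCl4 2 nearly touching. Ndufab1 was at 80.37, 126, 76.1 and 76.75 CPM in vehicle and 67.48, 70.58, 67.04 and 56.22 CPM in CCl4, with vehicle 2 far above the rest.

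Ndufa1, the most abundant complex I transcript per length, had 89.26, 156.3, 83.1 and 87.19 CPM in vehicle and 103.1, 117.5, 92.21 and 70.3 CPM in CCl4, a log2 change of -0.12 (SE 0.23) that turned positive (0.15) without vehicle 2.

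Of the 8 complex I assembly factors, 7 had negative estimates, 1 a positive one and 0 passed. The median was -0.30, and vehicle 2 was the highest vehicle library for 5 of the 8. The groups of Ndufaf4 and Ndufaf5 did not overlap, a share of the 8 near the 22.5% of all genes tested. Ndufaf5, which modifies Ndufs7, was at 3.88, 5.57, 5.46 and 4.44 CPM in vehicle and 3.47, 3.83, 3.26 and 3.62 CPM in CCl4 (log2 fold change -0.45, SE 0.23, edgeR adjusted p = 0.231). Atp5sl was at 14.46, 13.24, 17.05 and 15.01 CPM in vehicle and 15.96, 20.07, 21.55 and 18.5 CPM in CCl4 (log2 fold change 0.35, SE 0.15, edgeR adjusted p = 0.157).

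Complex II oxidises succinate and is the complex with no mitochondrially encoded subunit. All 4 of its genes had small positive estimates, from 0.03 to 0.19, and 0 passed. Sdha, the flavin-carrying subunit, was at 311.3, 180.8, 328.3 and 361.9 CPM in vehicle and 317.1, 345.1, 407.5 and 275.9 CPM in CCl4. Here vehicle 2 was the lowest library of its group, and Sdha is the tested member in which it lay furthest below the others (log2 fold change 0.19, SE 0.22, and 0.01 without vehicle 2). Sdhb, the iron-sulfur subunit and the most abundant per length, was at 190.1, 235, 189.5 and 192.9 CPM in vehicle and 199.6, 240.2, 211.6 and 174.7 CPM in CCl4, with an estimate of 0.03 (SE 0.15). The 95% intervals of all 4 genes lay inside a change of 1 on the log2 scale. The sign of Sdhb turned under 4 alternatives.

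Complex III, which passes electrons from coenzyme Q to cytochrome c, had 4 positive and 4 negative estimates among 8 genes, with a median of -0.04. The core proteins Uqcrc1 and Uqcrc2 and the Rieske iron-sulfur protein Uqcrfs1 had estimates of 0.07, 0.08 and 0.14. Uqcrh, the hinge protein at the cytochrome c side, was at 44.81, 53.5, 42.52 and 42.94 CPM in vehicle and 62.26, 58.71, 52.51 and 47.47 CPM in CCl4 (log2 fold change 0.27, SE 0.14, edgeR adjusted p = 0.246). It was called higher in 2 of 19 alternatives. Uqcrq, a small subunit bound to cytochrome b, was at 86.14, 140.3, 76.22 and 72.23 CPM in vehicle and 76.78, 79.26, 73.52 and 61.5 CPM in CCl4 (log2 fold change -0.36, SE 0.21, and -0.10 without vehicle 2).

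Cytochrome c itself did not pass. Cycs was at 121.2, 166, 113 and 111.7 CPM in vehicle and 119.8, 107.5, 84.42 and 77.91 CPM in CCl4, and the groups overlapped, since CCl4 1 lay above vehicle 3 and 4 (log2 fold change -0.39, SE 0.19, edgeR adjusted p = 0.192). Its estimate was negative in all 19 alternatives and was -0.24 without vehicle 2. Of the 31-base words of Cycs, 28.6% were shared with the gene Gm10053, which held 82.81 CPM on average in the vehicle libraries, so the split of reads between them is uncertain.

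In complex V, the 5 subunits of the F1 head, which makes ATP, had a median of 0.05, with 4 positive estimates. The 10 subunits of the membrane part and the stalk were all negative, with a median of -0.18, and vehicle 2 was the highest vehicle library for all 10 and for 2 of the 5 F1 subunits. With 0 of 15 genes called, this difference between head and membrane part is a description and was not tested. Atp5b, the catalytic subunit and the most abundant per length, was at 524.8, 441.7, 520.8 and 520.5 CPM in vehicle and 539.9, 567.4, 536.4 and 417.3 CPM in CCl4 (log2 fold change 0.04, SE 0.15). Atp5d, a subunit of the central stalk of F1, was at 103.1, 97.11, 87.77 and 90.11 CPM in vehicle and 124, 116.7, 135.4 and 94.7 CPM in CCl4 (log2 fold change 0.32, SE 0.14, edgeR adjusted p = 0.178), and it was called higher in 2 of 19 alternatives. Atp5k, subunit e of the membrane part, had the largest negative estimate, -0.36 (SE 0.23), with vehicle 2 at 26.24 CPM and the other 7 libraries between 11.81 and 15.89 CPM. Without vehicle 2 it was -0.08.

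The genes for subunit c of the membrane ring, Atp5g1, Atp5g2 and Atp5g3, encode the same mature protein. Atp5g3 was the most abundant of them at 183 TPM, before Atp5g2 at 48.4 and Atp5g1 at 31.4 TPM, and their estimates were -0.08, -0.18 and -0.28. Of Atp5g2's 31-base words, 87.7% were also in the pseudogene Gm10175, which held 28.91 CPM on average in vehicle, so the level of Atp5g2 is uncertain. Ndufa12 shared 59.0% with Gm15920 and Ndufb4 38.3% with Ndufb4c in the same way. For Cox5a 16.3% of words were shared, and the copy with the most of them, Gm11633, held on average 0.4 counts beside 3989 counts for Cox5a.

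Summed over complexes I to V and cytochrome c, the 84 nuclear genes were at 7698, 9609, 7440 and 7518 CPM in vehicle and 7619, 8626, 7696 and 6279 CPM in CCl4. The groups overlapped, with means of 8066 ± 1034 and 7555 ± 965.9 CPM (SD, n = 4 each). The 13 mitochondrially encoded subunits summed to 40923, 48398, 29917 and 17941 CPM in vehicle and 10143, 11867, 9024 and 8315 CPM in CCl4, and all 13 passed the test as lower, with a median log2 fold change of -1.89. The largest change was that of mt-Nd3, at 14.91 CPM on average in vehicle (log2 fold change -2.59, SE 0.55, edgeR adjusted p = 0.00755). Next came mt-Nd2, a membrane subunit of complex I at 1004 CPM on average in vehicle (log2 fold change -2.52, SE 0.40, edgeR adjusted p = 0.00129). The catalytic core of complex IV, mt-Co1, changed by -1.71 (SE 0.27, edgeR adjusted p = 0.00129).

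The ratio of mitochondrially encoded to nuclear-encoded subunit CPM was 5.32, 5.04, 4.02 and 2.39 in the vehicle libraries and 1.33, 1.38, 1.17 and 1.32 after CCl4. Every vehicle library lay above every CCl4 library, and the vehicle libraries spread over a wider range. The marker sums of other cell types given above also differed between the groups, and their part in this ratio was not tested. In complex I the nuclear sum in CCl4 was 0.88 times that in vehicle and the mitochondrial sum 0.236 times. In complex IV these ratios of means were 0.887 and 0.324, and in complex V 0.984 and 0.273. Leaving the mitochondrial genes out of the scaling left 1 member called lower, Cox5a.

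**Figure D5:**
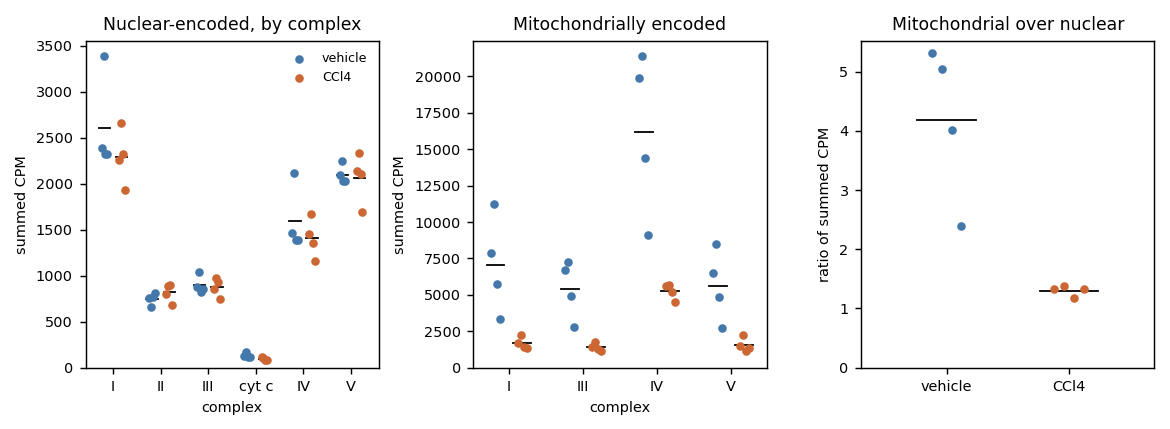
Summed CPM per library of nuclear-encoded genes by complex (left), of mitochondrially encoded genes by complex (middle) and the ratio of the mitochondrial to the nuclear sum (right), with lines at the means of 4 libraries a group. The nuclear sums overlap between groups in each complex, while the ratio lies between 2.39 and 5.32 in vehicle and between 1.17 and 1.38 in CCl4.

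Genes that build or serve the complexes without being members were listed separately: assembly factors, coenzyme Q synthesis enzymes and the remaining complex V genes. Of 69 tested, 8 passed as lower and 0 as higher, beside the 6.26% and 8.93% of all genes given above. The median was -0.27 and 51 estimates were negative, where 52.1% of all genes were. By list the calls were 1 of 4 complex II assembly factors, 2 of 7 complex III genes, 2 of 26 complex IV assembly factors, 1 of 10 complex V genes and 2 of 13 coenzyme Q genes. Of the 18 listed complex I assembly factors, members included, 0 passed and 17 estimates were negative. Vehicle 2 lay far above its group for Atpif1 (209.2 CPM) and below it for Coa5 (46.81 CPM). Medians without vehicle 2 were not computed for these lists, so their direction is not given as a result.

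Coa7, an assembly factor of complex IV, had the clearest change of these. It was at 14.98, 18.3, 15.31 and 16.57 CPM in vehicle and 7.96, 9.7, 9.82 and 8.8 CPM in CCl4, with no overlap (log2 fold change -0.84, SE 0.15, edgeR adjusted p = 0.00316). Coq2, which attaches the side chain in coenzyme Q synthesis, was at 19.66, 20.3, 18.83 and 18.13 CPM in vehicle and 9.76, 11.24, 13.4 and 12.08 CPM in CCl4 (log2 fold change -0.73, SE 0.15, edgeR adjusted p = 0.00607). Vehicle 2 was close to its group for both genes, and both calls held in all 19 alternatives.

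The other calls were nearer the threshold. Coa3, which stabilises newly made mt-Co1, changed by -0.67 on the log2 scale (SE 0.21, edgeR adjusted p = 0.0494, and -0.41 without vehicle 2), and Coq7, a hydroxylase of coenzyme Q synthesis, by -0.62 (SE 0.18, adjusted p = 0.0387). Bcs1l, which inserts the Rieske protein into complex III, changed by -0.64 and Uqcc1, needed for cytochrome b, by -0.42 (adjusted p = 0.0494 and 0.0444). Sdhaf3, an assembly factor for Sdhb, changed by -0.87 and the ADP/ATP carrier Slc25a5 by -0.49 (adjusted p = 0.047 and 0.0478). Each of these 6 lost its call in 7 or more of its 18 or 19 alternatives.

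Among 13 regulators of nuclear-encoded respiratory genes, Myc passed as lower, at 78.45, 66.41, 110.2 and 91.11 CPM in vehicle and 41.77, 45.5, 59.12 and 39.33 CPM in CCl4 (log2 fold change -0.90, SE 0.19, edgeR adjusted p = 0.00711). Nrf1 (0.32, SE 0.23), Gabpa (0.27, SE 0.18), Yy1 (0.37, SE 0.17) and Esrra (0.21, SE 0.23) had positive log2 estimates that did not pass. Those of Ppargc1a (-1.08, SE 0.78) and Ppargc1b (-0.30, SE 0.31) were negative and did not pass either. Of the 13 estimates, 6 were negative. The log2 estimate of Hif1a, the oxygen-responsive factor known to raise Ndufa4l2 and Cox4i2, was 0.73 (SE 0.24, edgeR adjusted p = 0.0582), while those targets stayed under the count filter. Tfam, which packages and transcribes mitochondrial DNA, was at -0.46 (SE 0.20, adjusted p = 0.153).

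Some members are made as more than 1 transcript, and the share of the most abundant transcript was screened in 31 members with at least 100 counts in each library and a second transcript of at least 10%. For Ndufv3 and Atp5c1, splice forms are known to differ between tissues. The main transcript of Ndufv3 held 65.9 ± 4.41% of its counts in vehicle and 65.9 ± 4.71% in CCl4, and that of Atp5c1 84.0 ± 1.86% and 83.7 ± 1.92% (SD, n = 4 each), differences smaller than the spread between libraries (exact permutation p = 0.971 and 0.8, two-sided). The largest separation was in Ndufs4, a complex I subunit, where a transcript annotated as a target of nonsense-mediated decay held 46.5%, 56.6%, 58.1% and 58.6% in vehicle and 40.0%, 44.4%, 42.3% and 38.5% in CCl4. The groups did not overlap (exact permutation test, two-sided, p = 0.0286, the smallest that 4 against 4 allows), but over 31 genes the adjusted p was 0.59, so 0 genes passed. Shares between transcripts of 1 gene are estimates by kallisto and not direct counts.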

How the data were processed

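The authors deposited, for each of the 8 libraries, the estimated counts and the TPM of every transcript, made with kallisto per the submitters' processing notes, which also name edgeR, limma and mm10. The sources used here do not state versions, the transcript release or strandedness. The FPKM per gene deposited by the authors named the members and entered 1 alternative. Of 117494 transcripts, 116405 matched GENCODE M21 without version suffixes; the rest held at most 0.313% of a library. Estimated counts were summed per gene and rounded. Of the 96 members, 95 matched by symbol and Atp5sl as Dmac2.

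Genes with a count of 10 in enough libraries (filterByExpr, minimum total 15) were tested with edgeR 4.0.16 (R 4.3.3): TMM, quasi-likelihood, group as the sole term, Benjamini-Hochberg adjustment over 15212 genes, threshold 0.05. Since each library is not said to be a separate mouse, p-values measure the spread between these libraries, which may be technical. In simulated counts of 14752 genes for this comparison, 75% of changes of log2 1 and 98% of log2 2 were recovered and 4.4% of calls were false. The simulation changed only genes above a minimum CPM and held no library offset like that of vehicle 2, so these rates may not hold for the members. There were 19 alternatives: other scalings and filters, DESeq2 1.42.0, limma 3.58.1 on log2(FPKM + 1), a replicate block, libraries left out and, added after seeing the data, a removed length trend. Named genes were all members that passed, the most abundant member per length and the extreme estimates of each complex, isoform pairs and up to 8 passing genes of each list. Other genes named were chosen after their values were seen. Members and lists were chosen with earlier results of these data known. Promoter windows are from RefSeq (GRCm38.p6). Members overlapping another gene or sharing 31-base words with one are uncertain. The result for 1 member is not reported here.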

Additional observations from a re-analysis of the deposited data

Results flagged for a closer look

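Among 118 sets of 4 values examined (named genes and complex sums, vehicle and CCl4 apart), 19 had a library that stood far from the other 3 of its group by Dixon's ratio, where chance gives about 1 in 20. In 18 of them the library was vehicle 2, the highest of its group for all but Atp5b. In complex I these were Ndufa1 (156.3 CPM) and Ndufa5 (60.1 CPM), in complex II Sdhb (235.0 CPM) and in complex III Uqcr11 (186.0 CPM). In complex IV they were Cox5a (265.2 CPM), Cox6a1 (175.4 CPM), Cox6b1 (213.5 CPM), Cox7a2 (107.4 CPM), Cox7c (207.0 CPM) and Ndufa4 (152.5 CPM). In complex V they were Atp5g3 (87.59 CPM) and, as the lowest library, Atp5b (441.7 CPM). For Atp5b this depended on the measure: in FPKM vehicle 2 was the highest vehicle library, at 156 beside 56.46 to 59.44 in the others.

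The partner genes Coa3 (124.2 CPM), Coq7 (43.52 CPM) and Slc25a5 (1346 CPM) were also highest in vehicle 2. So were the sums of nuclear-encoded genes over complex I (3389 CPM), complex IV (2115 CPM) and all complexes with cytochrome c (9609 CPM). For Bcs1l the library that stood apart was vehicle 4 (12.36 CPM).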

How the results depend on the processing

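Cox5a, Coa7, Coq2 and Myc kept their direction and call in all 19 alternatives. The count of members called lower, 1 in the main test, was 4 with library size as the only scaling, 2 with upper-quartile scaling, 3 with DESeq2, 3 without a low-count filter, 4 with limma on FPKM and 3 with the length trend removed. The count called higher, 0 in the main test, was 1 with DESeq2, 1 with a minimum count of 30, 4 without both vehicle 2 and CCl4 4 and 4 with the length trend removed. With 1 library left out at a time it was 0 to 1 (Ndufa6 without vehicle 2, and 1 member without CCl4 4), and the count called lower stayed at 1. The median over the members, -0.20, was -0.274 to -0.0415 with 1 library left out and 0.0404 without both; library size and upper-quartile scaling moved the median of all genes to -0.155 and -0.119. Over all genes the share called ran from 7.92% (no filter) to 20% (minimum count of 30), against 15.2% in the main test. The cause of these shifts was not tested.

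The labels do not say whether replicate numbers pair the libraries. The correlation of deviations of same-numbered libraries was 0.015, -0.241, 0.039 and -0.169, while that of vehicle 2 with CCl4 4 was 0.472. Offsets of whole libraries enter these values, so they cannot decide whether libraries were paired. With the number as a replicate block, 3 members were called lower (Ndufa5, Cox5a and Cox7c) and 0 higher, beside 13.9% of all genes called.

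Several uncalled estimates changed sign, with main values from -0.60 (Cox7a1) to 0.06 (Cox7a2l). Without both vehicle 2 and CCl4 4, and again with the length trend removed, these were Ndufa1 (0.265 and 0.135), Cox6a1 (0.0668 and 0.00872), Cox6b1 (0.161 and 0.0993), Cox7b (0.234 and 0.16) and Atp5g3 (0.109 and 0.0947). Without both libraries alone they were Cox6b2 (0.121), Cox7a1 (0.0394), Ndufa4 (0.0224) and Atp5g2 (0.151). With library size only, upper-quartile scaling and limma on FPKM they were Sdhb (-0.108, -0.0713 and -0.0699), Atp5b (-0.101, -0.0549 and -0.547), Cox7a2l (-0.0794, -0.0423 and -0.0283) and Cox8a (-0.135, -0.1 and -0.085). Cox8a was -0.0177 with a minimum count of 30, and Atp5b -0.233 with length-scaled TPM counts. Cox7b was 0.00658 with DESeq2, 0.0244 without a filter, 0.0566 with length-scaled TPM counts and 0.0129 with limma on FPKM. With 1 library left out, estimates that changed sign ran from -0.225 to 0.147 for Ndufa1, -0.0431 to 0.114 for Sdhb, -0.0187 to 0.129 for Atp5b, -0.232 to 0.0733 for Cox6b1, -0.184 to 0.13 for Cox7b, -0.0496 to 0.151 for Cox8a and -0.142 to 0.0294 for Atp5g3. The tested muscle and testis isoforms, at 3.53 CPM or less, had standard errors of 0.50 to 0.51, so at this depth small changes in them could not be told from 0.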

Other observations

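The deposited FPKM table and the TPM summed per gene from the transcript tables gave similar relative mean levels for most members. Means over the 8 libraries do not show whether single libraries or groups compare alike in both measures. Over 88 tested members, the ratio of mean FPKM to mean TPM had a median of 0.113, and 79 members lay within 10% of it, Cox5a among them (58.9 FPKM and 524 TPM). In 5 members the ratio was under 20% of that median. These were Ndufa4 (0.035 FPKM beside 383 TPM), Ndufs8 (2.75 beside 260.4), Ndufs4 (1.22 beside 98.0), Ndufa9 (1.82 beside 96.0) and Atp5s (0.238 beside 10.8), named after their values were seen. Taken from the FPKM table alone, Ndufa4 would be listed near 0. The sources used here do not state how the FPKM values were derived.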
